A study of Homo sapiens with 18 samples.

Results

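The enzymes that write and erase marks on lysines 4 and 27 of histone H3, together with NSD2, which acts on lysine 36, were examined in MDA-MB-231 cells after EZH2 or E2F1 was depleted or EZH2 was inhibited. The 10 genes were taken by name, out of 62703 genes in the files, by a rule that holds no measured value, though with earlier results of these data known. They were the H3K27 demethylases KDM6A and KDM6B, the acetyltransferases EP300 and CREBBP, the H3K4 methyltransferases KMT2A, KMT2C and KMT2D, the H3K4 demethylases KDM5A and KDM5B, and the H3K36 methyltransferase NSD2. All 10 passed the filter on low counts in every comparison, with 203 to 7217 expected counts per library.

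EZH2 carries the methyltransferase activity of PRC2, the polycomb complex that places methyl groups on H3K27 and so marks silent genes. KDM6A and KDM6B remove that mark, and EP300 and CREBBP acetylate the same lysine at active enhancers and promoters, so that a given H3K27 carries either methylation or acetylation. KMT2C and KMT2D are the large methyltransferases that mark enhancers at H3K4, KMT2A acts mainly at promoters, and KDM5A and KDM5B remove the H3K4 methyl groups again. NSD2 dimethylates H3K36, a mark that hinders PRC2 on the same histone tail. E2F1 is a transcription factor that activates genes of the cell division cycle.

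MDA-MB-231 is a human triple-negative breast cancer cell line, that is, one without the estrogen, progesterone and HER2 receptors by clinical criteria. The knockdown experiment comprised cells with Control shRNA, shEZH2 or shE2F1, transduced with lentivirus for 24 h and kept in puromycin at 2 µg per ml for 72 h. The drug experiment comprised cells given DMSO or GSK126, an inhibitor of the EZH2 methyltransferase, at 1 µM for 72 h. The labels name each knockdown by its target only. Each of the 5 groups had 2 libraries of polyadenylated RNA. Whether these came from separate cultures is not given in the sources used here, so that p-values measure the spread between these libraries. In bulk RNA, less transcript in every cell and fewer cells with the transcript cannot be told apart.

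The 10 libraries held 13198932 to 20055550 counts. Levels of one gene between libraries are given as CPM (counts scaled to 1000000 per library) after TMM scaling, which aligns the bulk of genes between libraries. EZH2 stood at 153 and 181 CPM with Control shRNA and at 52.7 and 44.8 CPM with shEZH2. E2F1 stood at 143 and 138 CPM with Control shRNA and at 26.0 and 22.5 CPM with shE2F1. In both cases the targeted transcript was lower in both knockdown libraries than in both controls. E2F1 also fell in shEZH2, to 62.5 and 32.3 CPM (log2 change -1.59 ± 0.23, SE, adjusted p 0.000172), and EZH2 fell in shE2F1, to 121 and 137 CPM (log2 change -0.38 ± 0.12, adjusted p 0.0227). With DMSO, EZH2 stood at 123 and 127 CPM, and with GSK126 at 133 and 142 CPM. E2F1 stood at 83.7 and 109 CPM with DMSO and at 102 and 118 CPM with GSK126. Of 4 markers that the line should express, 3 (VIM, CD44 and KRT18) had at least 10 TPM (transcript abundance per length, scaled to 1000000 per library) in every library, and SPARC was low in all libraries, at 0.144 to 3.51 CPM. PGR was at 0 throughout, ESR1 stayed under 1 TPM, and 2 of the 5 receptor and epithelial markers expected to be low (ERBB2 and EPCAM) had at least 10 TPM in every library. Some of these markers moved with the knockdowns. VIM stood at 3217 and 3522 CPM with Control shRNA, at 1420 and 1281 CPM with shEZH2 and at 2742 and 2865 CPM with shE2F1. CDH1, the epithelial cadherin and the fifth marker expected to be low, stood at 0.848 and 0.18 CPM with Control shRNA, 2.41 and 2.65 CPM with shEZH2 and 9.83 and 6.42 CPM with shE2F1. EPCAM stood at 24.2 and 26.6, 27.8 and 27.2, and 11.2 and 10.4 CPM in the same groups. The part of these markers in the changes of the enzymes was not tested. The 3 markers of leukocytes and endothelium summed to at most 1.05 TPM.

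In coordinates of GRCh38, the H3K27 demethylase genes were KDM6A (ENSG00000147050) on the forward strand at X:44873188-45112779 and KDM6B (ENSG00000132510) on the forward strand at 17:7834217-7854796. The acetyltransferase genes were EP300 (ENSG00000100393) on the forward strand at 22:41092592-41180077 and CREBBP (ENSG00000005339) on the reverse strand at 16:3725054-3880713. The methyltransferase genes were KMT2A (ENSG00000118058) on the forward strand at 11:118436456-118526832, KMT2C (ENSG00000055609) on the reverse strand at 7:152134922-152436644, KMT2D (ENSG00000167548) on the reverse strand at 12:49018975-49060794 and NSD2 (ENSG00000109685) on the forward strand at 4:1871393-1982207. The H3K4 demethylase genes KDM5A (ENSG00000073614) at 12:280057-389320 and KDM5B (ENSG00000117139) at 1:202724495-202808487 both lie on the reverse strand. Their longest annotated transcripts ran from 6728 bases in KDM6B to 20686 bases in KMT2D, and the GC content of these transcripts from 36.4% in KDM6A to 62.2% in KDM6B. Of the 10 genes, 9 were in the longest 10% of all genes tested, above 7719 bases.

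Because E2F1 binds DNA, the stretch just before the transcription start was read for the enzyme that fell most in shE2F1, NSD2. The 250 bases before the RefSeq start of NSD2 (GRCh38.p14, chr4:1871143-1871392, forward strand) are printed 5′ to 3′ in lower case, with a match to an E2F-type motif in capitals.
NSD2: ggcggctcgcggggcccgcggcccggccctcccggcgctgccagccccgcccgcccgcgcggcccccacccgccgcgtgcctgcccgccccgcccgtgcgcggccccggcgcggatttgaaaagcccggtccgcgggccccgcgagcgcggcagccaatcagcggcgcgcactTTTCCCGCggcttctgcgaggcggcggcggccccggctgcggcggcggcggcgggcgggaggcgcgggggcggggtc
The motif letters searched were TTTCCCGC, TTTCGCGC, TTTGCCGC and TTTGGCGC on either strand, in windows of 250 bases before to 50 bases after each RefSeq start. The match, TTTCCCGC on the forward strand, lies 77 to 70 bases before the start. Such a match occurred in 3.31% of 35116 RefSeq windows. The 10 enzymes had 12 such windows, and the window of NSD2 was the 1 with a match. The other enzyme that fell in shE2F1, KDM5B, held none of these letters in its window. A match is a description of the letters and not of binding.

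Between genes, levels were compared as the deposited TPM, which are per transcript length. NSD2 was the highest of the 10 in every group, at 106 and 115 TPM with Control shRNA, and KDM6B was the lowest in every group, at 4.98 and 2.53 TPM with Control shRNA. Between them, with Control shRNA, KMT2D stood at 53.5 and 43.6 TPM and KMT2A at 49.6 and 38.4 TPM, which overlapped. KMT2C followed at 25.0 and 22.1 TPM, then KDM5B at 20.6 and 18.9 TPM, without overlap. KDM5A stood at 16.3 and 18.9 TPM and EP300 at 18.0 and 15.3 TPM, which overlapped. CREBBP, at 15.0 TPM in both libraries, and KDM6A, at 16.2 and 13.4 TPM, also overlapped. The order of the 3 KMT2 genes was not the same in every group. In shEZH2, KMT2C (55.6 and 55.1 TPM) stood above KMT2D (47.2 and 47.7 TPM) without overlap, whereas with Control shRNA both KMT2C libraries lay below both KMT2D libraries. KDM5B took rank 5 with Control shRNA and rank 8 in shE2F1, where its 15.6 and 15.9 TPM overlapped CREBBP at 14.6 and 15.9 TPM. In the drug experiment most neighbours in the order overlapped.

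**Figure D1:**
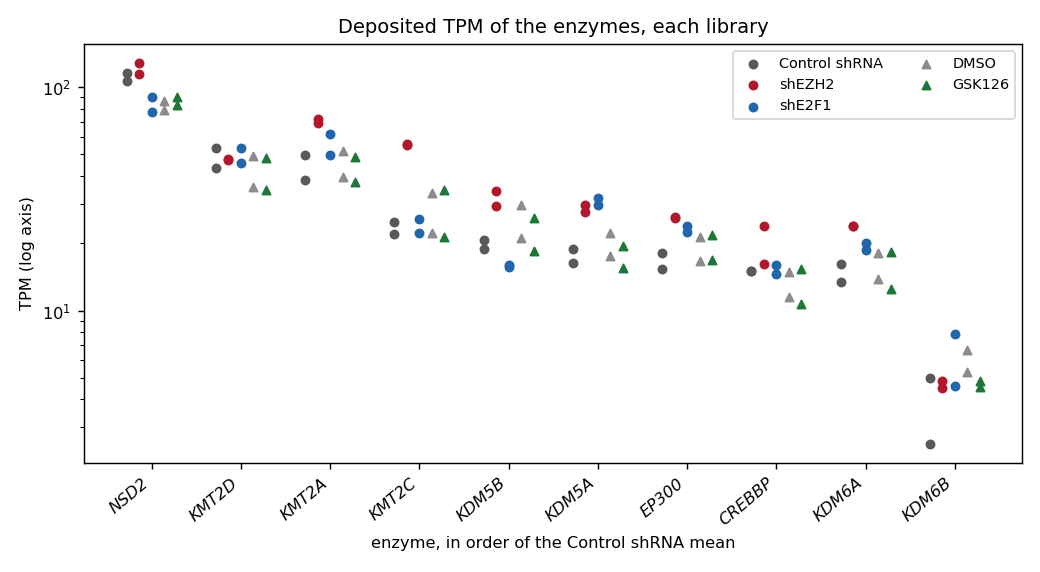
TPM on a log axis of the 10 enzymes, ordered by the Control shRNA mean, with 1 point per library (circles, knockdown experiment; triangles, drug experiment) and colours for the 5 groups. NSD2 sits highest and KDM6B lowest in each group, and the 2 shEZH2 points of KMT2C, at 55.6 and 55.1 TPM, lie far above its other libraries.

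The comparison of shEZH2 with Control shRNA asks which of these enzymes changed with the loss of EZH2. Of the 10 enzymes, 7 rose and none fell. KMT2C rose most, 2.07-fold, and KMT2A, KDM5B, EP300, KDM6A, KDM5A and CREBBP rose 1.25- to 1.46-fold. Of all 15373 genes tested, 27.0% rose and 28.6% fell at the same threshold, an adjusted p under 0.05 in edgeR's quasi-likelihood test. The median log2 change was 0.42 over the 10 enzymes and -0.02 over all genes tested. KMT2C alone also passed the threshold of the study, an adjusted p under 0.01 with a change of more than 2-fold, which 18.2% of genes tested passed.

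Gene length and GC content moved with this comparison. Over 15366 genes, the log2 change in shEZH2 had a correlation of -0.24 with GC content and 0.13 with the logarithm of length, a description over genes of 4 libraries, and the longest 10% of genes had a median of 0.30. In a fit that corrected every library for GC content and length, 3 of the 10 enzymes passed the threshold. That fit also moved all annotated genes of a library by a constant, on top of TMM scaling. Its changes therefore do not reflect GC content and length alone. Of all genes tested, 8238 passed in that fit, against 8550 without the correction. KMT2C remained higher (log2 change 0.55, adjusted p 0.000461), KDM6B was higher (0.62, adjusted p 0.00181) and NSD2 was lower (-0.53, adjusted p 0.00141). KMT2A, KDM5B, EP300 and CREBBP kept their sign with adjusted p from 0.0883 to 0.478, and KDM6A (-0.12, adjusted p 0.356) and KDM5A (-0.05, adjusted p 0.721) changed sign. KMT2C was the 1 enzyme that passed in the same direction with and without this correction.

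In shE2F1 compared with Control shRNA, which asks the same of the loss of E2F1, 2 of the 10 enzymes fell and none rose. NSD2 fell 1.76-fold and KDM5B fell 1.51-fold. Of all genes tested, 21.1% rose and 23.7% fell, and 11.6% passed the threshold of the study, which none of the 10 enzymes passed, since neither fall reached 2-fold. The median log2 change was 0.06 over the enzymes and 0.00 over all genes tested. Here the log2 change over genes had a correlation of -0.02 with GC content. In the fit with the correction, both falls were larger, -1.01 for NSD2 (adjusted p 1.13e-05) and -0.79 for KDM5B (adjusted p 0.000118). KMT2C was then also lower (-0.29, adjusted p 0.0267). The constant per library in that fit shifts every change too. How much of these differences came from GC content or length was not tested.

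**Figure D2:**
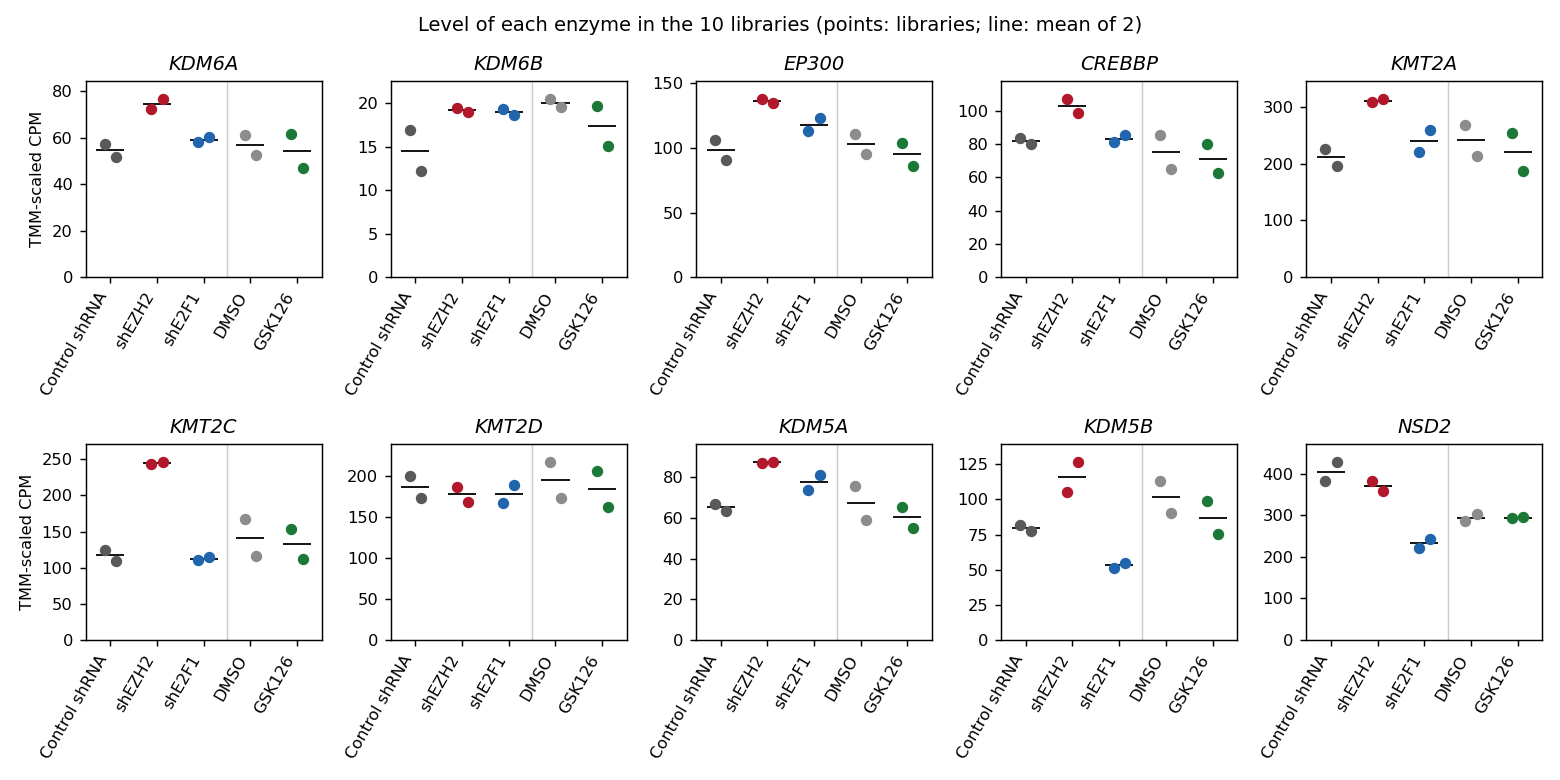
TMM-scaled CPM of each enzyme in each library, with 1 panel per gene and axes that start at 0; points are libraries and lines are means of 2. The shEZH2 points of KMT2C, at 243 and 247 CPM, lie above all its other libraries, and the shE2F1 points of KDM5B and NSD2 lie below all of theirs.

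**Figure D3:**
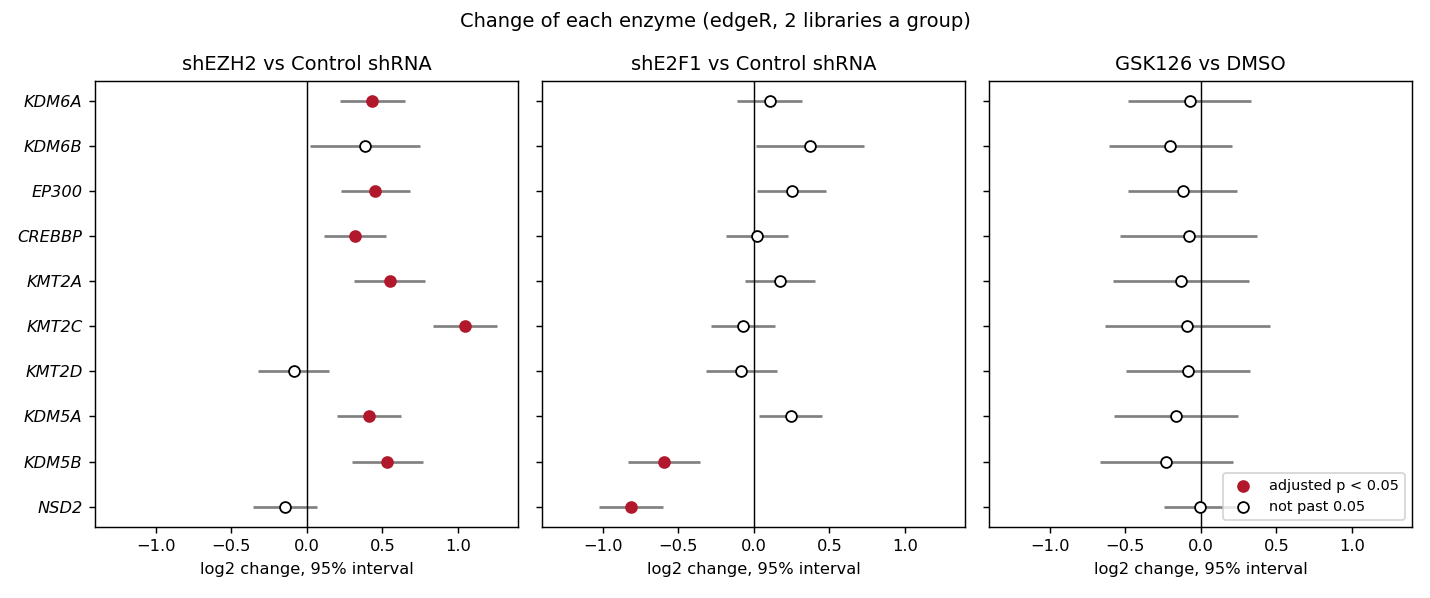
Log2 change of each enzyme with its 95% interval in the 3 comparisons with a control, filled where the adjusted p was under 0.05. In shEZH2, 7 enzymes lie to the right of 0, in shE2F1 KDM5B and NSD2 lie to the left, and with GSK126 no enzyme passed.

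**Figure D4:**
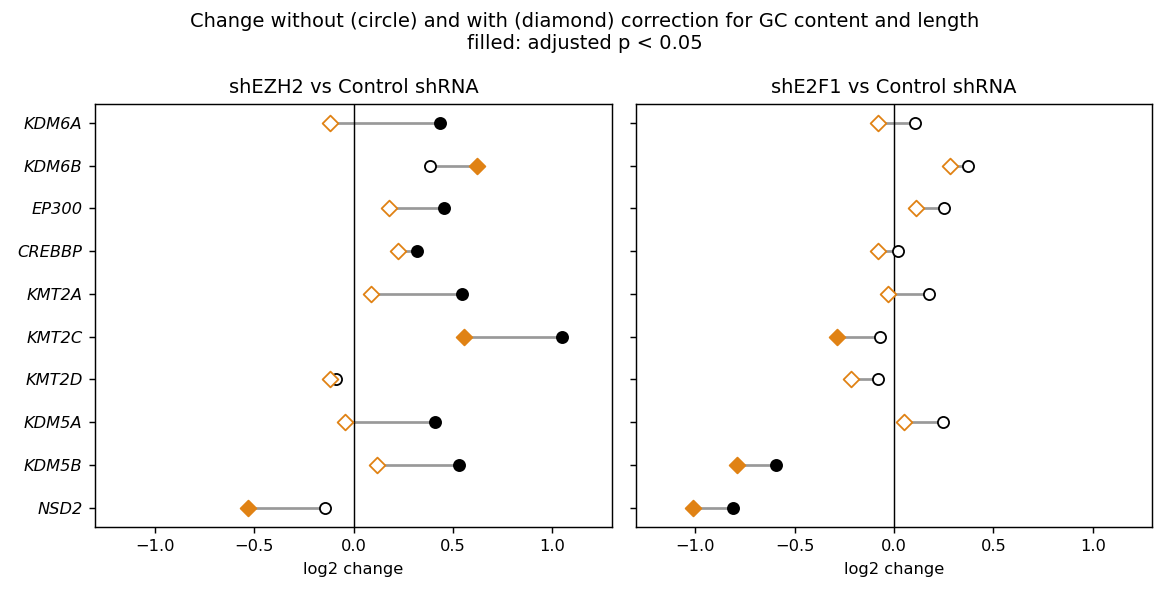
Log2 change of each enzyme in both knockdowns without (circles) and with (diamonds) correction for GC content and length, filled where the adjusted p was under 0.05. In shEZH2 the diamonds of KDM6A and KDM5A lie on the other side of 0, while in shE2F1 KDM5B and NSD2 move further from 0, to -0.79 and -1.01. The corrected fit also moves all annotated genes of a library by a constant.

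Of the H3K27 demethylases, KDM6A, which acts within the KMT2C and KMT2D complexes, had 57.5 and 51.9 CPM with Control shRNA, 72.4 and 76.7 CPM with shEZH2, and 58.3 and 60.1 CPM with shE2F1. Both shEZH2 libraries lay above all 4 other knockdown libraries. It rose in shEZH2 (log2 change 0.43 ± 0.10, adjusted p 0.00331), the change that turned to -0.12 with the correction. In shE2F1 the change was 0.10 ± 0.10 (adjusted p 0.412). KDM6B, the inducible demethylase, had 16.9 and 12.2 CPM with Control shRNA, 19.5 and 19.0 CPM with shEZH2 and 19.3 and 18.7 CPM with shE2F1. The controls differed more from each other than the knockdown libraries did among themselves, and the changes of 0.39 ± 0.16 in shEZH2 (adjusted p 0.0665) and 0.37 ± 0.16 in shE2F1 (adjusted p 0.0839) did not pass. Without Control shRNA replicate 1, KDM6B rose by 0.64 in shEZH2 (adjusted p 0.00704) and by 0.63 in shE2F1 (adjusted p 0.00959), and without Control shRNA replicate 2 the change in shEZH2 was 0.18.

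Of the acetyltransferases, EP300 had 106 and 90.6 CPM with Control shRNA, 138 and 135 CPM with shEZH2 and 113 and 123 CPM with shE2F1, so that each knockdown library lay above both controls. The rise in shEZH2 was 0.45 ± 0.10 on the log2 scale (adjusted p 0.00343). The change in shE2F1 was 0.25 ± 0.10 and did not pass (adjusted p 0.0686), except without Control shRNA replicate 1 (0.37, adjusted p 0.0174) or without the filter on low counts (0.27, adjusted p 0.0444). CREBBP, its paralog, had 83.4 and 79.8 CPM with Control shRNA, 107 and 98.5 CPM with shEZH2 and 81.0 and 85.3 CPM with shE2F1. It rose in shEZH2 by 0.32 ± 0.09 (adjusted p 0.0134), the smallest change among the 7 that passed. Without shEZH2 replicate 1 this change was 0.26 and did not pass (adjusted p 0.0807), nor did it with the effective length as an offset (0.21, adjusted p 0.28). In shE2F1 its libraries overlapped the controls (0.02 ± 0.09, adjusted p 0.884). With the correction the changes in shEZH2 were 0.18 for EP300 (adjusted p 0.144) and 0.22 for CREBBP (adjusted p 0.0883).

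Of the H3K4 methyltransferases, KMT2C had 125 and 109 CPM with Control shRNA, 243 and 247 CPM with shEZH2 and 110 and 115 CPM with shE2F1. Both shEZH2 libraries lay far above every other library of the series. The log2 change in shEZH2 was 1.05 ± 0.10 (95% interval 0.84 to 1.26, adjusted p 1.01e-05), and it passed in all 14 other settings tried, from 0.55 to 1.15. In shE2F1 it was -0.07 ± 0.10 (adjusted p 0.565). Of the 50-base stretches of KMT2C, 2.46% also occurred in another annotated gene, with the largest share, 1.66%, in the pseudogene BAGE2, so that RSEM could divide a small part of its reads. KMT2D, which shares its complex partners and enhancer role, had 200 and 174 CPM with Control shRNA, 187 and 168 CPM with shEZH2 and 167 and 189 CPM with shE2F1. These 6 libraries overlapped, with changes of -0.09 ± 0.11 in shEZH2 (95% interval -0.32 to 0.15, adjusted p 0.519) and -0.08 ± 0.11 in shE2F1 (adjusted p 0.562).

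KMT2A, the promoter methyltransferase known for its fusions in leukemia, had 226 and 196 CPM with Control shRNA, 309 and 314 CPM with shEZH2 and 220 and 259 CPM with shE2F1. It rose in shEZH2 by 0.55 ± 0.11 (adjusted p 0.00127), and the change was 0.09 with the correction (adjusted p 0.478). The change in shE2F1 was 0.17 ± 0.11 (adjusted p 0.207). Of the 50-base stretches of KMT2A, 17.6% also occurred in another annotated gene, nearly all in ENSG00000285827, which overlaps KMT2A on the same strand. That gene had 1.59 and 0.54 CPM with Control shRNA, 10.8 and 11.7 CPM with shEZH2 and 4.94 and 2.10 CPM with shE2F1. With its reads added to KMT2A, the changes were 0.59 in shEZH2 (adjusted p 0.000706) and 0.19 in shE2F1 (adjusted p 0.168). The posterior SD that RSEM gave for the KMT2A count was at most 13.1 counts, against at least 3169 counts per library.

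Of the H3K4 demethylases, KDM5B moved in opposite directions in the 2 knockdowns. It had 81.8 and 77.3 CPM with Control shRNA, 105 and 127 CPM with shEZH2 and 51.4 and 54.5 CPM with shE2F1, and no 2 of these groups overlapped. It rose in shEZH2 by 0.53 ± 0.11 (adjusted p 0.00157), which was 0.12 with the correction (adjusted p 0.396). It fell in shE2F1 (log2 change -0.60 ± 0.11, 95% interval -0.83 to -0.36, adjusted p 0.00121), and passed in all 14 other settings, from -0.79 to -0.53. KDM5A had 67.1 and 63.3 CPM with Control shRNA, 87.3 and 87.8 CPM with shEZH2 and 73.9 and 81.4 CPM with shE2F1, each knockdown library lying above both controls. KDM5A rose in shEZH2 by 0.41 ± 0.10 (adjusted p 0.00374), the change that turned to -0.05 with the correction, and the change of 0.24 ± 0.10 in shE2F1 did not pass (adjusted p 0.0571), except with the effective length as an offset (0.61, adjusted p 0.00383).

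NSD2 had 382 and 430 CPM with Control shRNA, 382 and 360 CPM with shEZH2 and 221 and 244 CPM with shE2F1. Both shE2F1 libraries lay below every other library of the series. The fall in shE2F1 (log2 change -0.81 ± 0.10, 95% interval -1.03 to -0.60, adjusted p 7.62e-05) passed in all 14 other settings, from -1.01 to -0.60. In shEZH2, where E2F1 was also lower, the change of NSD2 was -0.14 ± 0.10 (adjusted p 0.232), although it reached -0.53 with the correction. The abundance-weighted transcript length that RSEM gave for NSD2 was 5343 and 5254 bases with Control shRNA, 4996 and 5107 bases with shEZH2 and 4634 and 4558 bases with shE2F1. On the TPM scale, which divides by that length, NSD2 stood at 106 and 115 TPM with Control shRNA, 128 and 114 TPM with shEZH2 and 77.5 and 90.6 TPM with shE2F1. Within the knockdown experiment its shE2F1 libraries were thus the lower ones on both scales. On the TPM scale they overlapped DMSO (86.7 and 78.7 TPM) and GSK126 (90.2 and 82.9 TPM).

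The weighted length of a gene moves with the isoforms that RSEM assigns, and is described here without a test, since 2 against 2 libraries cannot give an exact permutation p below 0.333. In shE2F1, 3 of the 10 enzymes were shorter than in both controls without overlap (KDM6A, KDM5A and NSD2) and 3 were longer (CREBBP, KMT2C and KMT2D), against 22.1% and 13.4% of all genes tested. In shEZH2, KDM6A and NSD2 were shorter and KMT2D and KDM5B longer, against 18.4% and 19.7% of all genes tested. KDM6B was unstable between libraries of one group, at 5037 and 6720 bases with Control shRNA and 6720 and 4041 bases with shE2F1.

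The 2 knockdowns were compared directly in the same fit, which tests where they differ. In this contrast 6 of the 10 enzymes were higher in shEZH2 than in shE2F1 and none was lower, against 29.7% higher and 30.6% lower among all genes tested. KDM5B differed by 1.13 ± 0.11 (adjusted p 8.18e-06) and KMT2C by 1.12 ± 0.10 (adjusted p 3.59e-06), and both passed the threshold of the study, as did 23.3% of genes tested. NSD2 differed by 0.67 ± 0.10 (adjusted p 0.000145). KMT2A (0.38), KDM6A (0.33) and CREBBP (0.30) had adjusted p of 0.0104 to 0.0165, and did not pass without shE2F1 replicate 1 (adjusted p 0.105 to 0.144), which left 3 of the 6. Without shE2F1 replicate 2, KDM6A (adjusted p 0.0679) and CREBBP (adjusted p 0.066) did not pass. With the correction for GC content and length, KMT2C (0.84), KDM5B (0.91) and NSD2 (0.48) remained different, CREBBP (0.30, adjusted p 0.0238) did too, KDM6B passed (0.34, adjusted p 0.0380), and KMT2A (0.12) and KDM6A (-0.04) did not pass.

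With GSK126, which inhibits EZH2 without removing it, none of the 10 enzymes passed, nor did any at an unadjusted p under 0.05. All 10 changes were below 0, from -0.23 ± 0.18 for KDM5B to -0.01 ± 0.10 for NSD2. The median log2 change was -0.105 over the enzymes and -0.005 over all genes tested. The share of all genes tested with a change below 0 was not counted. By the same test 0% of 14632 genes rose, 0% fell and 0% passed the threshold of the study, while 577 had an unadjusted p under 0.05 and DESeq2 called 15 genes, none of the 10 enzymes among them. The 95% interval ran from -0.24 to 0.23 for NSD2 and from -0.64 to 0.46 for KMT2C, whose DMSO libraries had 167 and 116 CPM and whose GSK126 libraries had 154 and 112 CPM. KMT2C differed more between libraries of the same treatment than between treatments. In 9 of the 10 enzymes both libraries numbered 2 lay below both libraries numbered 1. The exception was NSD2, with DMSO libraries of 287 and 303 CPM and GSK126 libraries of 293 and 296 CPM. How many of all genes tested did so was not counted. Over 11919 genes, the difference between numbers 1 and 2 in DMSO had a correlation of 0.66 with that in GSK126.

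Compared within a replicate number, GSK126 minus DMSO was between -0.22 and 0.03 on the log2 scale in the libraries numbered 1. In those numbered 2 it was between -0.37 and -0.04. In both numbers 8 of the 10 enzymes were lower with GSK126, a count that was not made over all genes tested. KDM5B had 113 and 98.6 CPM in DMSO and GSK126 of number 1 and 90.1 and 75.1 CPM of number 2, differences of -0.20 and -0.26. KDM5A differed by -0.22 and -0.09, and KMT2A by -0.08 and -0.19. In a fit with the replicate number as a block, which the labels do not describe as a batch and which leaves 1 residual degree of freedom, 3 enzymes fell: KDM5B (-0.23, adjusted p 0.000414), KMT2A (-0.13, adjusted p 0.00658) and KDM5A (-0.16, adjusted p 0.0417). In that fit 6.30% of genes tested rose, 7.30% fell and 0.465% passed the threshold of the study.

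The effects of EZH2 loss and EZH2 inhibition were set against each other in a fit of all 10 libraries, by a test of the shEZH2 effect minus the GSK126 effect. For 5 of the 10 enzymes the shEZH2 effect was the higher one, and for none the lower one, against 16.9% higher and 19.7% lower among 15773 genes tested. The difference was 1.15 ± 0.24 for KMT2C (adjusted p 0.0033), the one enzyme past the threshold of the study, which 13.8% of genes passed. It was 0.77 ± 0.21 for KDM5B (adjusted p 0.0138), 0.69 ± 0.22 for KMT2A (adjusted p 0.0272), 0.59 ± 0.18 for EP300 (adjusted p 0.0252) and 0.59 ± 0.19 for KDM5A (adjusted p 0.0294). The 2 experiments differ also in lentivirus and selection, which Control shRNA and shEZH2 shared, so the contrast subtracts what they do in both groups. An effect particular to the hairpin, or one that arises only with lentivirus and selection, cannot be told apart from the kind of EZH2 perturbation. KMT2D (0.01 ± 0.21, 95% interval -0.44 to 0.45) and NSD2 (-0.13 ± 0.15, 95% interval -0.44 to 0.19) did not pass. The count of 5 was 1 when Control shRNA replicate 2, shEZH2 replicate 2, DMSO replicate 1 or GSK126 replicate 2 was left out, 2 without shEZH2 replicate 1, and 8 without GSK126 replicate 1, while KMT2C passed in all 17 other settings. With the correction for GC content and length, 3 enzymes passed, KMT2C (0.71, adjusted p 0.00321), EP300 (0.40, adjusted p 0.035) and KDM6B (0.89, adjusted p 0.00454). KDM5B (0.43, adjusted p 0.0518), KMT2A (0.31, adjusted p 0.129) and KDM5A (0.18, adjusted p 0.28) then did not pass. With the replicate number as a block 8 enzymes passed, the 5 above and KDM6A (0.53, adjusted p 0.00551), KDM6B (0.62, adjusted p 0.0261) and CREBBP (0.41, adjusted p 0.0112). The shares of 16.9% and 19.7% belong to the fit without correction or block. Shares of all genes in the corrected and blocked fits are not given here, so these counts have no background beside them.

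Among 39 genes of the complexes in which these enzymes work or which oppose them, 12 rose and 9 fell in shEZH2, with a median log2 change of 0.02, against 27.0% that rose and 28.6% that fell among all genes tested. The 9 include EZH2, the target of the hairpin. KDM1B, a flavin-dependent H3K4 demethylase, rose from 21.1 and 18.4 CPM to 71.8 and 72.6 CPM (log2 change 1.86 ± 0.11, adjusted p 1.23e-06). KAT2B, an acetyltransferase also called PCAF, rose from 27.3 and 19.9 CPM to 58.0 and 55.2 CPM (1.25 ± 0.14, adjusted p 4.22e-05). PAGR1, a subunit of the KMT2C and KMT2D complexes, fell from 27.4 and 22.3 CPM to 12.7 and 9.27 CPM (-1.21 ± 0.18, adjusted p 0.00025). KAT6A, an acetyltransferase, fell from 92.3 and 82.9 CPM to 46.9 and 33.1 CPM (-1.15 ± 0.15, adjusted p 9.41e-05). The 4 core subunits that all KMT2 complexes share did not move as one, since ASH2L and RBBP5 rose, DPY30 fell and WDR5 did not pass. The other H3K4 methyltransferases KMT2B, SETD1A and SETD1B did not pass in either knockdown, with changes from 0.02 to 0.22.

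In shE2F1, 3 of the 39 genes rose and 19 fell, with a median log2 change of -0.21, against 21.1% that rose and 23.7% that fell among all genes tested, with a median of 0.00. The histone deacetylases HDAC1, HDAC2 and HDAC3, which remove acetyl groups from histones, all fell. HDAC3 went from 107 and 108 CPM to 41.6 and 36.9 CPM (log2 change -1.46 ± 0.10, adjusted p 2.13e-06), while in shEZH2 it stood at 82.7 and 84.3 CPM. Of the 8 subunits particular to one or another H3K4 methyltransferase complex, 7 fell, HCFC1 being the one that did not pass. MEN1, which tethers KMT2A, went from 87.2 and 82.2 CPM to 40.3 and 40.6 CPM (-1.07 ± 0.10, adjusted p 1.14e-05). KAT7, an acetyltransferase, fell from 73.0 and 76.2 CPM to 36.1 and 31.3 CPM (-1.15 ± 0.11, adjusted p 1.36e-05). EZH1, the paralog of EZH2 in PRC2, rose from 32.2 and 27.9 CPM to 65.6 and 76.9 CPM (1.24 ± 0.12, adjusted p 2.5e-05). The other H3K36 methyltransferases NSD1, NSD3, SETD2 and ASH1L did not pass in shE2F1, with changes from -0.11 to 0.23, whereas NSD2 fell. With GSK126 none of the 39 passed, nor did any at an unadjusted p under 0.05. With the replicate number as a block, 1 of the 39 rose and 5 fell, against 6.30% and 7.30% of all genes tested. EZH2 rose (0.14, adjusted p 0.015), and the largest fall was that of RCOR1, a corepressor that works with the demethylase KDM1A (-0.31, adjusted p 1.76e-06). With the correction for GC content and length added to the block, EZH2 did not pass (0.10, adjusted p 0.082), while RCOR1 did (-0.37, adjusted p 2.6e-07).

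**Figure D5:**
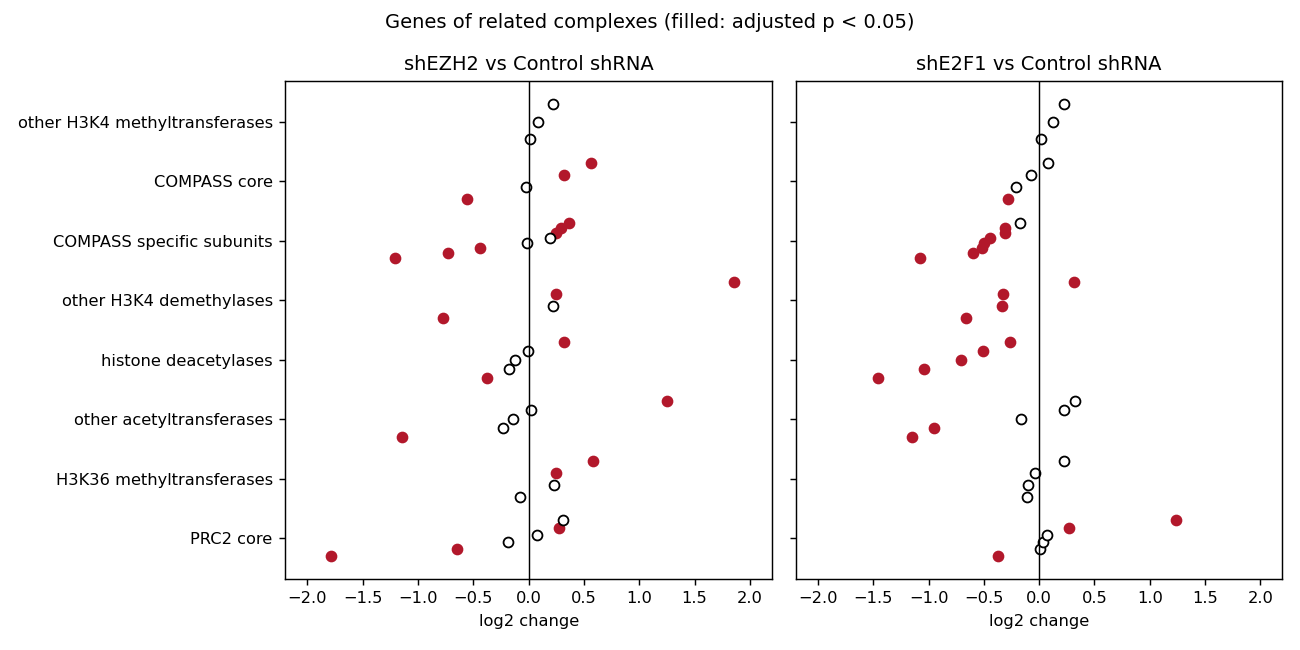
Log2 change of the 39 genes of related complexes in both knockdowns, 1 row per list, filled where the adjusted p was under 0.05. In shE2F1 7 of the 8 specific subunits lie filled to the left of 0, while in shEZH2 the lists spread to both sides.

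The genes whose log2 CPM followed KMT2C and NSD2 most closely over the 10 libraries were found among 14278 genes. For KMT2C these were GMCL1 (Pearson r 0.987), EXOC5 (0.986) and KAT2B (0.981). For NSD2 they were the mitotic kinesin KIF11 (0.985), ARHGDIB (0.978) and the spindle factor TPX2 (0.977). TPX2 had 511 and 571 CPM with Control shRNA, 500 and 519 CPM with shEZH2 and 297 and 296 CPM with shE2F1, and GMCL1 had 35.0 and 34.7, 66.6 and 76.4, and 34.5 and 35.7 CPM in the same groups. The libraries of 5 groups share their treatments, so that these correlations are a description of shape over few conditions.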

How the data were processed

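The 18 sample records held 10 distinct libraries, since 8 records had the same values as another, and each library entered once, grouped and numbered by its label. The kit kept strand information. The submitters' processing notes name STAR 2.7.2b and RSEM 1.3.1 on GRCh38. Whether counting used strand is not given in the sources used here, and EP300, KMT2A, KMT2C, KMT2D and KDM5A overlap exons on the opposite strand. The authors deposited RSEM expected counts, in which reads shared between genes are divided, together with TPM and transcript lengths. Rounded expected counts were tested in R 4.3.3 with edgeR 4.0.16 (filterByExpr, TMM, quasi-likelihood F-test, Benjamini-Hochberg over all genes in the fit). One fit held the 6 knockdown libraries and another the 4 drug libraries, without covariates, and a fit of all 10 gave the difference of effects. "Rose" and "fell" mean an adjusted p under 0.05, and errors of log2 changes are standard errors. The correction for GC content and length regressed each library's log2 counts on splines with 5 degrees of freedom, for the longest GENCODE 44 transcript of a gene, and entered as offsets. The regression held a constant for each library, and TMM scaling was applied besides. Corrected changes therefore hold a shift common to all annotated genes as well as the part for GC content and length. DESeq2 1.42.0, used in the study, was an alternative. The fits were tested on simulated data. The members, gene lists and tests were chosen with earlier results of these data known. Besides the 10 enzymes, EZH2 and E2F1, genes were named by rule: from the lists, at most 4 per knockdown with an absolute log2 change over 1 and an adjusted p under 0.05, by size, and the 3 genes most correlated with each of the 2 members that changed most (log2 CPM, prior count 2). Other genes named in the text as members of a list were named after their values were seen. The promoter sequence came from RefSeq. One gene of the lists is not reported here by name.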

Additional observations from a re-analysis of the deposited data

Results flagged for a closer look

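KDM5B had opposite changes in shEZH2 and shE2F1 that both passed the test, and the direct contrast of the 2 knockdowns differed by 1.13 on the log2 scale (adjusted p 8.18e-06). With GC content and length corrected for, the rise in shEZH2 was 0.12 and did not pass (adjusted p 0.396), while the direct contrast was 0.91. The shEZH2 effect differed from the GSK126 effect by a test of the difference for KMT2C (1.15), KDM5B (0.77), KMT2A (0.69), EP300 (0.59) and KDM5A (0.59). With the correction KMT2C (0.71, adjusted p 0.00321) and EP300 (0.40, adjusted p 0.035) passed, and KDM5B (0.43, adjusted p 0.0518), KMT2A (0.31, adjusted p 0.129) and KDM5A (0.18, adjusted p 0.28) did not.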

How the results depend on the processing

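Over 712 refits of single enzymes, 573 left direction and call as they were. With the direction kept, 46 lost the call and 38 gained one. The other 55 changed sign, with or without a change of the call. With GC content and length corrected, alone or with the replicate block, 3 enzymes passed in shEZH2 in place of 7. Of all genes tested in shEZH2, 8238 and 8258 passed in those fits, in place of 8550. In shEZH2 minus GSK126 3 enzymes passed in place of 5 with the correction alone. At the threshold of the study 1 enzyme passed in shEZH2, 0 in shE2F1, 2 between the knockdowns and 1 in shEZH2 minus GSK126. The replicate block gave 3 enzymes with GSK126 and 8 in shEZH2 minus GSK126, and 6 with GSK126 when joined with the correction. For the last 2 counts the share of all genes passing is not given here. Same-numbered libraries deviated together weakly in the knockdowns (r 0.04, 0.05 and 0.20 over 11919 genes), against 0.66 for DMSO and GSK126. In the knockdowns the block changed 1 call, KDM6B in shEZH2 (0.40, adjusted p 0.0451). Leaving out each replicate gave 6 to 8 enzymes in shEZH2, 2 to 4 in shE2F1, 3 to 6 between the knockdowns, 0 with GSK126 and 1 to 8 in shEZH2 minus GSK126. A group left with 1 library was assumed to vary like the others.

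These log2 changes turned sign, and the cause was not tested. With the correction, alone and with the replicate block, they were in shEZH2 -0.120 and -0.118 for KDM6A and -0.045 and -0.046 for KDM5A; in shE2F1 -0.080 and -0.079 for KDM6A, -0.079 and -0.078 for CREBBP and -0.031 and -0.033 for KMT2A; and between the knockdowns -0.040 and -0.039 for KDM6A, 0.096 and 0.098 for KMT2D and -0.095 in both for KDM5A. With the effective length as an offset they were -0.181 for CREBBP in shE2F1, 0.045 for NSD2 with GSK126, -0.391 for KDM6B and -0.106 for KDM5A between the knockdowns, and -0.157 for KMT2D in shEZH2 minus GSK126. Without the filter, KDM6B between the knockdowns was -0.015 and KMT2D in shEZH2 minus GSK126 -0.004. Between the knockdowns KMT2D was 0.012 in DESeq2 and 0.008 with its size factors.

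Leaving out single libraries also turned signs of changes that had not passed. In shEZH2, KMT2D ran from -0.179 to 0.013. In shE2F1 CREBBP ran from -0.018 to 0.054, KMT2C from -0.162 to 0.026 and KMT2D from -0.176 to 0.016. With GSK126 the ranges were -0.284 to 0.114 for KDM6A, -0.271 to 0.022 for EP300, -0.269 to 0.146 for CREBBP, -0.368 to 0.082 for KMT2A, -0.337 to 0.215 for KMT2C, -0.269 to 0.099 for KMT2D, -0.340 to 0.048 for KDM5A and -0.031 to 0.026 for NSD2. Between the knockdowns they were -0.008 to 0.046 for KDM6B and -0.094 to 0.090 for KMT2D, and in shEZH2 minus GSK126 -0.166 to 0.188 for KMT2D. CPM per effective length gave the same order in all 50 ranks. Since TPM are themselves counts per effective length, this is not a separate check of the order.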
